A study of Mus musculus with 22 samples.

Results

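Interferon-stimulated genes are the genes that a cell switches on when an interferon binds its receptor. They were followed here as a set of 42 mouse genes, chosen by symbol from interferon signalling and the effectors it induces. All 42 were present among the 55414 genes of the count table, and 41 of them had enough counts to be tested, among 17554 tested genes in all. The member left out was Epsti1, an interferon-induced gene active in macrophages, which reached at most 0.895 CPM (counts scaled to the TMM-corrected total of a library) in any library.

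The study compared fibroblasts from the back skin of operated mice. In EXP mice an expander hydrogel lay under the skin, held near the neck, and CTRL mice had the same incision and subcutaneous path but no expander, so that all libraries come after surgery and none from intact skin. The labels name no strain, age, sex or genotype. Libraries were made on day 1 (4 CTRL, 5 EXP), day 2 (3 CTRL, 3 EXP) and day 4 (4 CTRL, 3 EXP), 22 in all, from live cells without CD31, CD45, CD117 and EpCAM and with CD34 and PDGFRα. Whether each library is a separate mouse is not stated, so the p-values measure the spread between these libraries, which may be partly technical.

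Type I interferons, such as interferon-β, signal through IFNAR1 and IFNAR2 and the kinases JAK1 and TYK2 to a complex with STAT2 and IRF9, which binds the interferon-stimulated response element (ISRE). Interferon-γ signals through IFNGR1 and IFNGR2 to genes with a gamma-activated sequence (GAS), and it induces IRF1 and many of the interferon-inducible GTPases. In skin, fibroblasts are known to carry both receptors and to answer both kinds of interferon.

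Promoters of 32 of the 42 members were found in the RefSeq promoter table (build GRCm38.p6). The ISRE core, taken as GAAA, any 2 bases and GAAA again on either strand, occurred in the 250 bases before the start of 16 of these 32 genes, which is 50% (95% Wilson interval 33.6 to 66.4%), against 3.46% of all 27025 genes with such a promoter. A longer form, with a C after the second GAAA, was found in 37.5% of the members and 0.796% of all genes. The GAS core, TTCNNNGAA, occurred in 25% of the members and 8.13% of all genes. By role, the ISRE core was present in 5 of 5 GTPase promoters, 3 of 4 IFIT promoters, 2 of 3 OAS promoters, 1 of 2 in the ISG15 system, 1 of 3 sensor promoters, 3 of 10 promoters of the other effectors, 1 of 4 of the transcription factors and 0 of 1 in the PARP9-DTX3L group. A match is a string of letters and not a measured binding site. Iigp1 was not among the 32 members with a promoter. The windows of 8 members are shown, some of them called on no day. Each is the last 120 bases before the start, 5′ to 3′ on the strand of the gene, with each ISRE or GAS core in capitals.
Irf1 (chr11:53769894-53770013, plus strand): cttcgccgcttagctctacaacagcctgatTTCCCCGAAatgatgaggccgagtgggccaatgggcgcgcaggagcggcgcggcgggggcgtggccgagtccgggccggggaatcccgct
Gbp2 (chr3:142620543-142620662, plus strand): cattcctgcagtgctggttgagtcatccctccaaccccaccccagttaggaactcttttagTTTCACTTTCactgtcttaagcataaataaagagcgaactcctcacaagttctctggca
Gbp7 (chr3:142530216-142530335, plus strand): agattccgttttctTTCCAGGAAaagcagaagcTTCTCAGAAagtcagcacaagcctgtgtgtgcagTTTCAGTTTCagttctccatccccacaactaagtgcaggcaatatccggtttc
Igtp (chr11:58199436-58199555, plus strand): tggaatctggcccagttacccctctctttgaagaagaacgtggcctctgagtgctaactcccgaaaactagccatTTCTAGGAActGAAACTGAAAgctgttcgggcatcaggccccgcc
Irgm1 (chr11:48871421-48871540, minus strand): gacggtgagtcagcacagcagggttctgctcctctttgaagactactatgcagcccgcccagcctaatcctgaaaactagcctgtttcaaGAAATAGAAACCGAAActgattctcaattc
Isg15 (chr4:156200819-156200938, minus strand): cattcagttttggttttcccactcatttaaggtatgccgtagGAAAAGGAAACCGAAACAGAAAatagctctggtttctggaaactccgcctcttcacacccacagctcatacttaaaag
Ifit1 (chr19:34640769-34640888, plus strand): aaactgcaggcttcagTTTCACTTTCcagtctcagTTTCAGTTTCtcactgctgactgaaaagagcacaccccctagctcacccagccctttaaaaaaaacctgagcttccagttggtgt
Oas1a (chr5:120907526-120907645, minus strand): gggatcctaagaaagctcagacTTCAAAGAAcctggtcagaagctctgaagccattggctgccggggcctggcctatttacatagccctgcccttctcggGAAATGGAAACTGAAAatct
In Irf1 the only capitals are a GAS core, and this was the promoter with more matches of the 2 listed for the gene. Igtp, Gbp7 and Oas1a carry both kinds of core. In Isg15, Irgm1 and Oas1a neighbouring ISRE cores overlap, as 3 matches in Isg15 and 2 in each of the others.

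**Figure D1:**
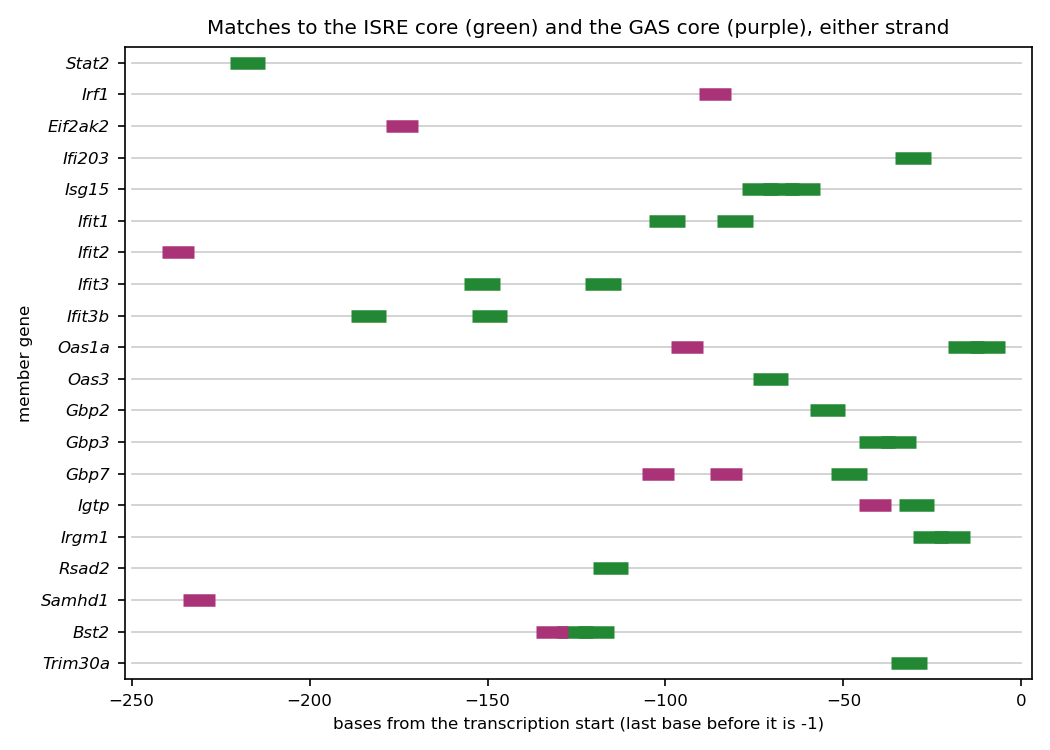
Positions of ISRE core matches (green) and GAS core matches (purple) in the 250 bases before the transcription start, for each member with a match; the horizontal axis is bases from the start. Of the 32 members with a promoter, 16 carried the ISRE core and 8 the GAS core.

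Library totals ran from 21461294 to 30210204 counts, and replicates differed by far more than counting noise (chi-square per degree of freedom 26.7 to 403 between replicate pairs). A floor of 3 counts corresponds to 0.0805 to 0.157 CPM. The sorted cells carried the fibroblast genes Pdgfra (227 to 1023 CPM) and Cd34 (217 to 2348 CPM) in every library. Among immune markers, Ptprc, which encodes CD45, had at most 7 counts in any library and the macrophage gene Adgre1 at most 6, but Csf1r reached 3438, Cd14 2295 and Cd68 755. For T cells, Cd8a had 0 counts and Cd3e reached 1077, and for plasmacytoid dendritic cells Siglech had 0 and Ccr9 reached 106. The 22 libraries also fell into 2 sides by a set of 192 genes that rise and fall with Rnf10 apart from the groups. On the high side were 7 libraries, namely CTRL replicates 1 to 3 and EXP replicates 1 and 2 of day 1 and CTRL replicates 3 and 4 of day 4. The labels record no batch, and what separates the sides is not given in the sources used here. In RNA from sorted cells in bulk, fewer cells of a responding kind and less RNA per cell cannot be told apart.

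How the set stood in stretched skin, beside skin after surgery alone, was asked on each day. After a log2 fold change, ± gives its standard error and q its edgeR quasi-likelihood p adjusted by Benjamini-Hochberg over all tested genes. On day 1, all 41 tested members had a lower fitted level in EXP (40 of 41 with library totals in place of TMM scaling, where Eif2ak2 was at 0.06). Of these, 24 were called lower at an edgeR quasi-likelihood adjusted p under 0.05 and 0 higher, while 28.6% of all tested genes were called in either direction, 14.7% were called lower and 13.9% higher. At an unadjusted p under 0.05, 30 members were lower and 0 higher, and DESeq2 called 27 lower and 0 higher (32.3% of all genes called). The median log2 fold change was -1.37 over the members and 0.02 over all tested genes. On day 2, 6 members were called lower and 0 higher (13.4% of all genes called, 5.71% lower and 7.72% higher), with a median of -0.45 against 0.02 for all genes. At an unadjusted p, 11 were lower and 2 higher, and DESeq2 called 8 lower and 0 higher (17.8% of all genes called). By day 4, 9 members were called lower and 2 higher (22.5% of all genes called, 9.66% lower, 12.8% higher), with a median of -0.72 against 0.03 for all genes. At an unadjusted p, 15 were lower and 3 higher, and DESeq2 called 12 lower and 2 higher (27.3% of all genes called). Counted by overlap, every EXP library lay below every CTRL library for 14 of the 41 members on each day, where 12.2%, 18.4% and 11.8% of all tested genes did so on days 1, 2 and 4, beside the 28.6%, 13.4% and 22.5% called.

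The calls were then counted by role, beside the 14.7%, 5.71% and 9.66% of all tested genes called lower on days 1, 2 and 4. The GTPases were called lower in 6 of 6 on day 1, 4 of 6 on day 2 and 5 of 6 on day 4. Transcription factors were called lower in 2, 1 and 3 of 4. The IFIT genes were called in 2 of 4 on day 1 and in 0 of 4 on days 2 and 4. The 4 OAS genes were never called lower, and 1 of them was called higher on day 4. Over the whole set, 5 members were called lower on all 3 days, namely Irf1, Gbp2, Igtp, Irgm1 and Iigp1. Another 3 were lower on 2 days (Irf9, Gbp7 and Samhd1) and 18 on 1 day. How many of all tested genes were lower on 3, 2 or 1 days was not counted. At most 5.71% of them, the share of day 2, can be lower on all 3 days. Oas1a was called higher and never lower, and 15 members, the untested Epsti1 among them, were called on no day. Exons of 16 of the 42 members overlap exons of another gene in GENCODE M21, namely Irf1, Irf7, Irf9, Dhx58, Eif2ak2, Ifi203, Usp18, Herc6, Gbp2, Gbp7, Igtp, Parp9, Parp14, Dtx3l, Rtp4 and Ifi35, so their counts may hold or lack reads of the neighbour.

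**Figure D2:**
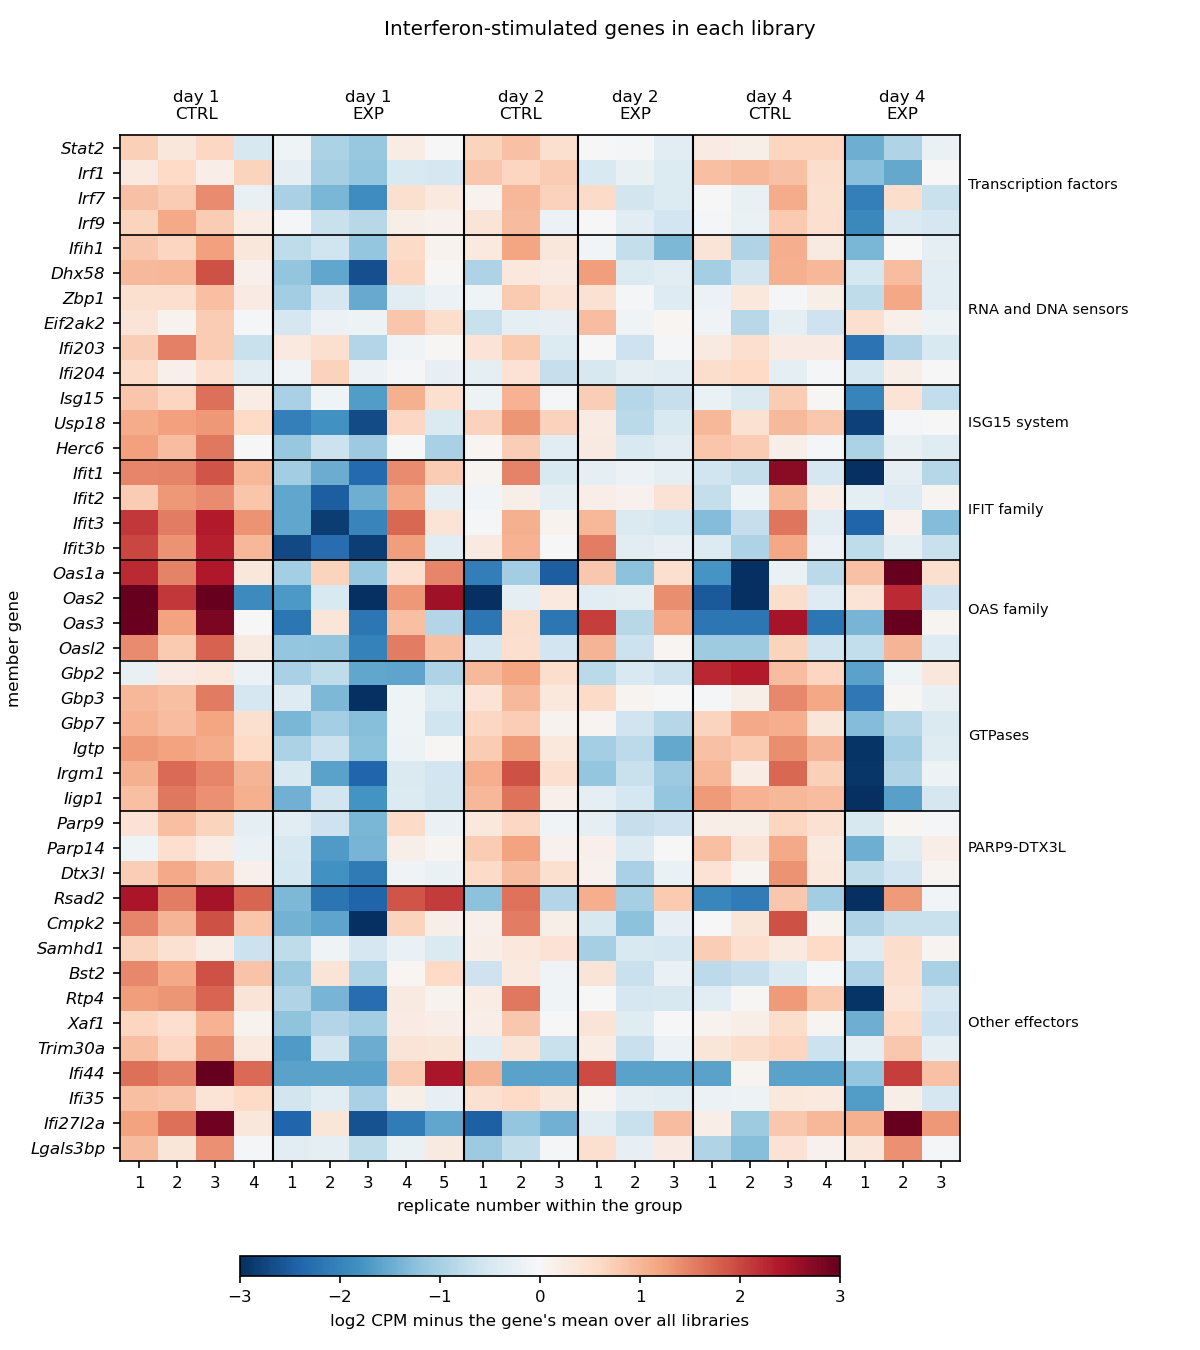
Log2 CPM of each tested member (rows, grouped by role) in each of the 22 libraries (columns, replicate number within each group), as the difference from the mean of that gene over all libraries; red is above and blue below the mean. The 4 CTRL libraries of day 1 are red for most members, EXP replicates 1 to 3 of day 1 are blue for most, and EXP replicates 4 and 5 of day 1 lie between.

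**Figure D3:**
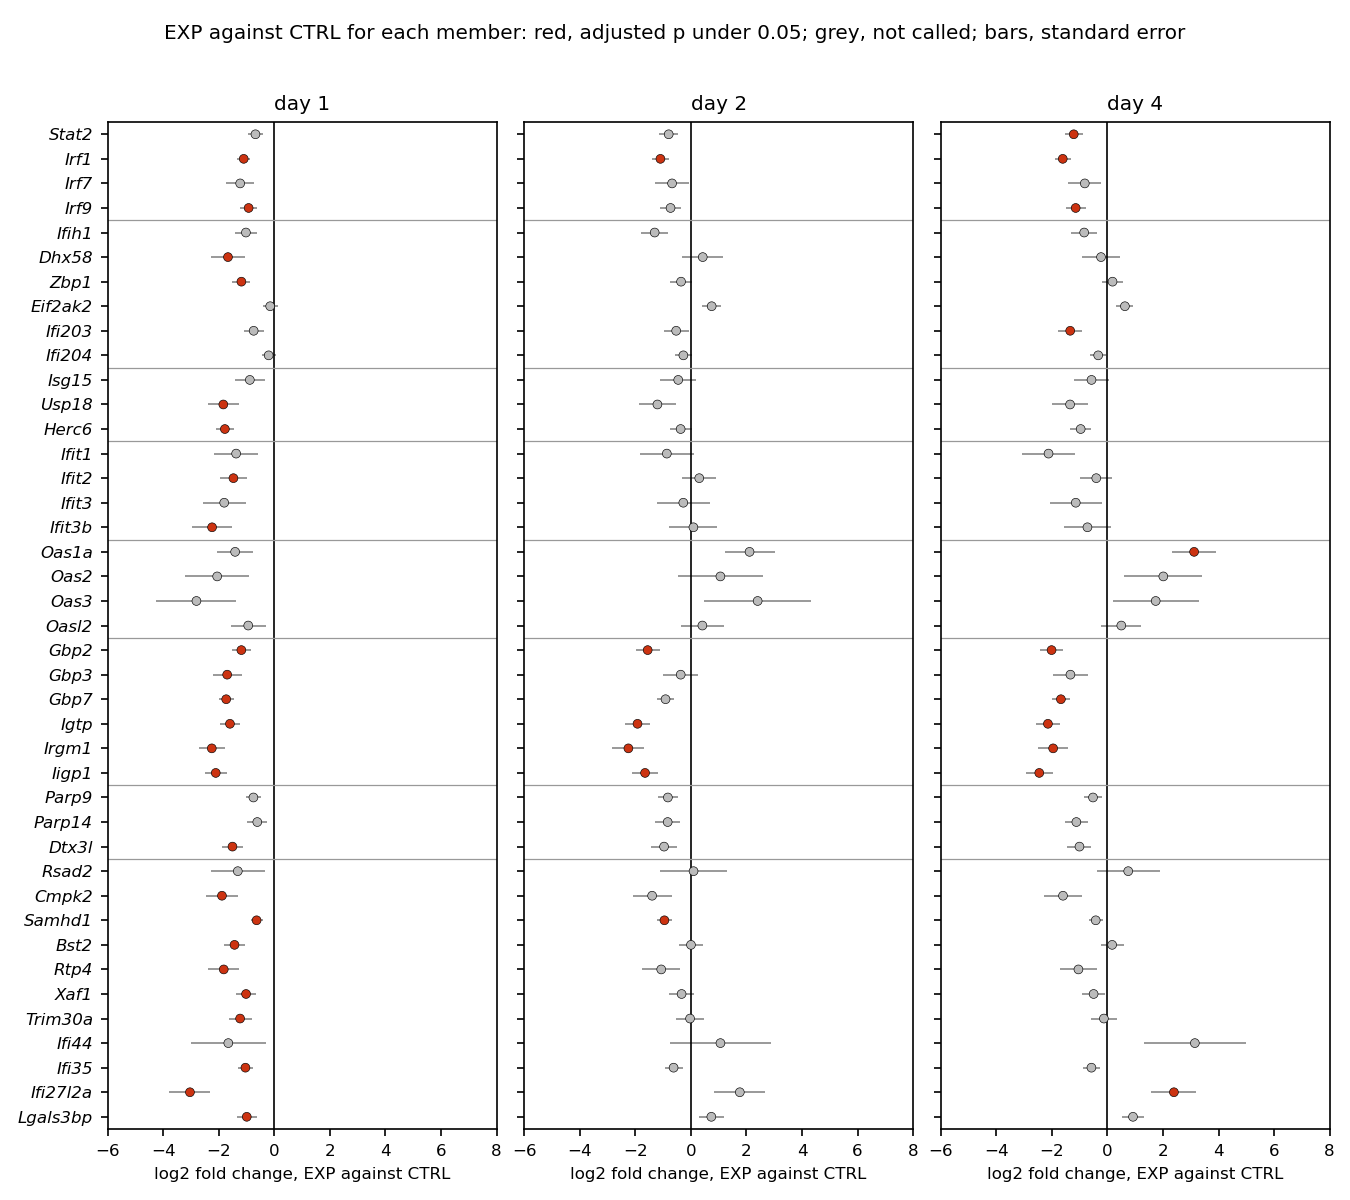
Log2 fold change of EXP against CTRL for each tested member on days 1, 2 and 4 (points) with its standard error (bars); red points passed an adjusted p of 0.05 and grey points did not. The points of day 1 all lie left of 0, with 24 in red, and on day 4 Oas1a and Ifi27l2a are in red right of 0.

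The transcription factors were examined first. Values are CPM in order of replicate number. Irf1 encodes an activator that interferon-γ rapidly induces. Irf1 was at 241, 296, 224 and 311 CPM in CTRL and 159.9, 97.7, 87.9, 143 and 137 CPM in EXP on day 1. The day 2 libraries held 344, 306 and 329 CPM of Irf1 in CTRL and 142, 169 and 148 CPM in EXP. By day 4, Irf1 was at 363, 389.8, 357 and 281 CPM in CTRL and 81.7, 67.5 and 193 CPM in EXP. Every EXP library lay below every CTRL library of its day, and on day 4 EXP replicate 3 was the highest of its group by a wide margin. The log2 fold changes were -1.10 (± 0.24, q 0.00164) on day 1, -1.09 (± 0.29, q 0.0161) on day 2 and -1.61 (± 0.28, q 0.000967) on day 4. Irf1 thus fell 2.14-fold, 2.14-fold and 3.05-fold.

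Stat2 and Irf9 encode parts of the ISRE-binding complex. Stat2 read 60.8, 46.6, 56.5 and 26.5 CPM in CTRL and 33.7, 18.99, 16.8, 42.9 and 36.4 CPM in EXP on day 1, and the groups overlapped because CTRL replicate 4 was low. On day 2 it read 58.2, 68.1 and 51.6 CPM in CTRL and 36.5, 36.1 and 29.8 CPM in EXP, with no overlap. Its day 4 values were 43.8, 41.7, 57.4 and 57.4 CPM in CTRL and 13.2, 19.7 and 32 CPM in EXP, again with no overlap. The differences were -0.68 (± 0.28, q 0.0730) and -0.80 (± 0.34, q 0.129) on days 1 and 2, which did not pass, and -1.21 (± 0.33, q 0.0134) on day 4, which did.

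Irf9 was at 38.9, 54.2, 41.6 and 28.9 CPM in CTRL and 24.04, 15.6, 13.7, 27.7 and 26.7 CPM in EXP on day 1. The same gene was at 32.1, 47.8 and 21.7 CPM in CTRL and 24.9, 19.7 and 16.5 CPM in EXP on day 2, and at 24.2, 21.4, 42.6 and 34.8 CPM in CTRL and 6.44, 18.1 and 17.3 CPM in EXP on day 4. The groups were apart on days 1 and 4 and overlapped on day 2 through CTRL replicate 3. Irf9 fell by 0.92 on the log2 scale on day 1 (± 0.30, q 0.0267) and by 1.14 on day 4 (± 0.36, q 0.0276). The day 2 difference was -0.73 (± 0.37, q 0.208).

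Irf7, the amplifier of type I interferon production, spread widely within groups. Its day 1 values were 75.6, 69.5, 110.1 and 35.02 CPM in CTRL and 20.7, 15.7, 11.2, 56.8 and 50.4 CPM in EXP, so that EXP replicates 4 and 5 lay above CTRL replicate 4. For day 2 they were 43.9, 81.5 and 65.6 CPM in CTRL and 60.9, 27.9 and 30.7 CPM in EXP, and for day 4 40.7, 34.9, 88.9 and 56.7 CPM in CTRL and 9.82, 58.7 and 25.9 CPM in EXP. The groups overlapped on each day and no difference passed, at -1.23 (± 0.51, q 0.0780), -0.68 (± 0.62, q 0.516) and -0.81 (± 0.59, q 0.337) on days 1, 2 and 4.

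The interferon-inducible GTPases coat and break the vacuoles in which intracellular pathogens live. They comprise guanylate-binding proteins (Gbp2, Gbp3, Gbp7) and immunity-related GTPases (Igtp, Irgm1, Iigp1). Their fitted levels were lower in EXP on every day, except that Gbp3 on day 2 turned from -0.37 to 0.11 with library totals in place of TMM scaling, and Irgm1 and Iigp1 had the largest falls among them on day 1. Iigp1 was at 114, 182, 159 and 128 CPM in CTRL and 22.5, 41.7, 17.6, 45.9 and 41.4 CPM in EXP on day 1, and at 123, 188 and 67.8 CPM in CTRL and 50.9, 42.4 and 27.5 CPM in EXP on day 2. On day 4 the CTRL values were 149, 125, 121 and 116 CPM and the EXP values 7.16, 19.8 and 43.2 CPM. No EXP library reached the lowest CTRL library of its day, and CTRL replicates of day 4 lay close together. Iigp1 fell 4.31-fold on day 1, 3.13-fold on day 2 and 5.48-fold on day 4, with log2 fold changes of -2.11 (± 0.39, q 0.000568), -1.65 (± 0.48, q 0.0277) and -2.45 (± 0.48, q 0.00217).

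Irgm1, a regulator of the other immunity-related GTPases and of autophagy, was at 104, 159, 135 and 99.2 CPM in CTRL and 35.7, 16.2, 9.41, 36.5 and 32.9 CPM in EXP on day 1. The next day gave 104, 185 and 69.7 CPM in CTRL and 21.9, 30.8 and 22.95 CPM in EXP for Irgm1, and day 4 gave 98.4, 57.4, 163 and 80.6 CPM in CTRL and 6.47, 26.4 and 44.6 CPM in EXP. The groups were apart on all 3 days, with the lowest EXP value in EXP replicate 1 of day 4. The log2 fold changes of Irgm1 were -2.25 (± 0.46, q 0.00142), -2.25 (± 0.58, q 0.0150) and -1.95 (± 0.55, q 0.0174).

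Igtp, also called Irgm3, was at 67.3, 63.3, 60.02 and 41.6 CPM in CTRL and 14.1, 17.6, 11.6, 24.6 and 28.1 CPM in EXP on day 1. On day 2, Igtp had 46.6, 66.7 and 34.1 CPM in CTRL and 13.5, 15.98 and 9.48 CPM in EXP. Its day 4 values were 50.3, 47.4, 72.8 and 55.5 CPM in CTRL and 3.54, 13.6 and 21.4 CPM in EXP. CTRL and EXP did not overlap on any day. The log2 fold changes were -1.60 (± 0.35, q 0.00231), -1.92 (± 0.45, q 0.00781) and -2.14 (± 0.43, q 0.00265), and Igtp was the only member called lower on day 2 in each of the 6 fits that left out a library of that day. Exons of Igtp overlap exons of its neighbour Irgm2 on the same strand, so reads of the pair may be split or shared.

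Gbp2 was at 84.9, 118, 123 and 87.02 CPM in CTRL and 50.5, 58.6, 33.3, 32.7 and 51.9 CPM in EXP on day 1 and at 194, 225 and 143 CPM in CTRL and 56.8, 71.5 and 63.3 CPM in EXP on day 2. On day 4 CTRL held 477, 514, 189 and 156 CPM and EXP 32.5, 90.8 and 125 CPM. CTRL replicates 1 and 2 of day 4 were far above replicates 3 and 4, and the EXP libraries were below all of them. Gbp2 fell 2.27-fold, 2.94-fold and 4.03-fold on days 1, 2 and 4, with log2 fold changes of -1.18 (± 0.35, q 0.0151), -1.55 (± 0.43, q 0.0222) and -2.01 (± 0.42, q 0.00344).

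Gbp7 was at 57.5, 53.5, 63.3 and 38.8 CPM in CTRL and 10.8, 13.9, 11.5, 25.4 and 18.6 CPM in EXP on day 1. Day 2 values were 43.1, 46.4 and 29.97 CPM in CTRL and 29.6, 18.4 and 15.6 CPM in EXP, and those of day 4 were 44.7, 62.04, 59.9 and 35.8 CPM in CTRL and 11.3, 15.5 and 20.8 CPM in EXP. The groups were apart on each day, narrowly on day 2. The log2 fold change was -1.73 (± 0.26, q 8.9e-05) on day 1, the smallest adjusted p of any member on that day, -0.91 (± 0.32, q 0.0640) on day 2, which did not pass, and -1.67 (± 0.31, q 0.00154) on day 4. Gbp3 had means of 30.6 CPM (SD 15) over the 4 CTRL libraries and 9.44 CPM (SD 5.43) over the 5 EXP libraries on day 1 and fell by 1.70 on the log2 scale (± 0.52, q 0.0206), while its differences of -0.37 on day 2 and -1.33 on day 4 did not pass. Gbp genes are close paralogs of each other, and how the counting shared reads among them is not given in the sources used here.

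**Figure D4:**
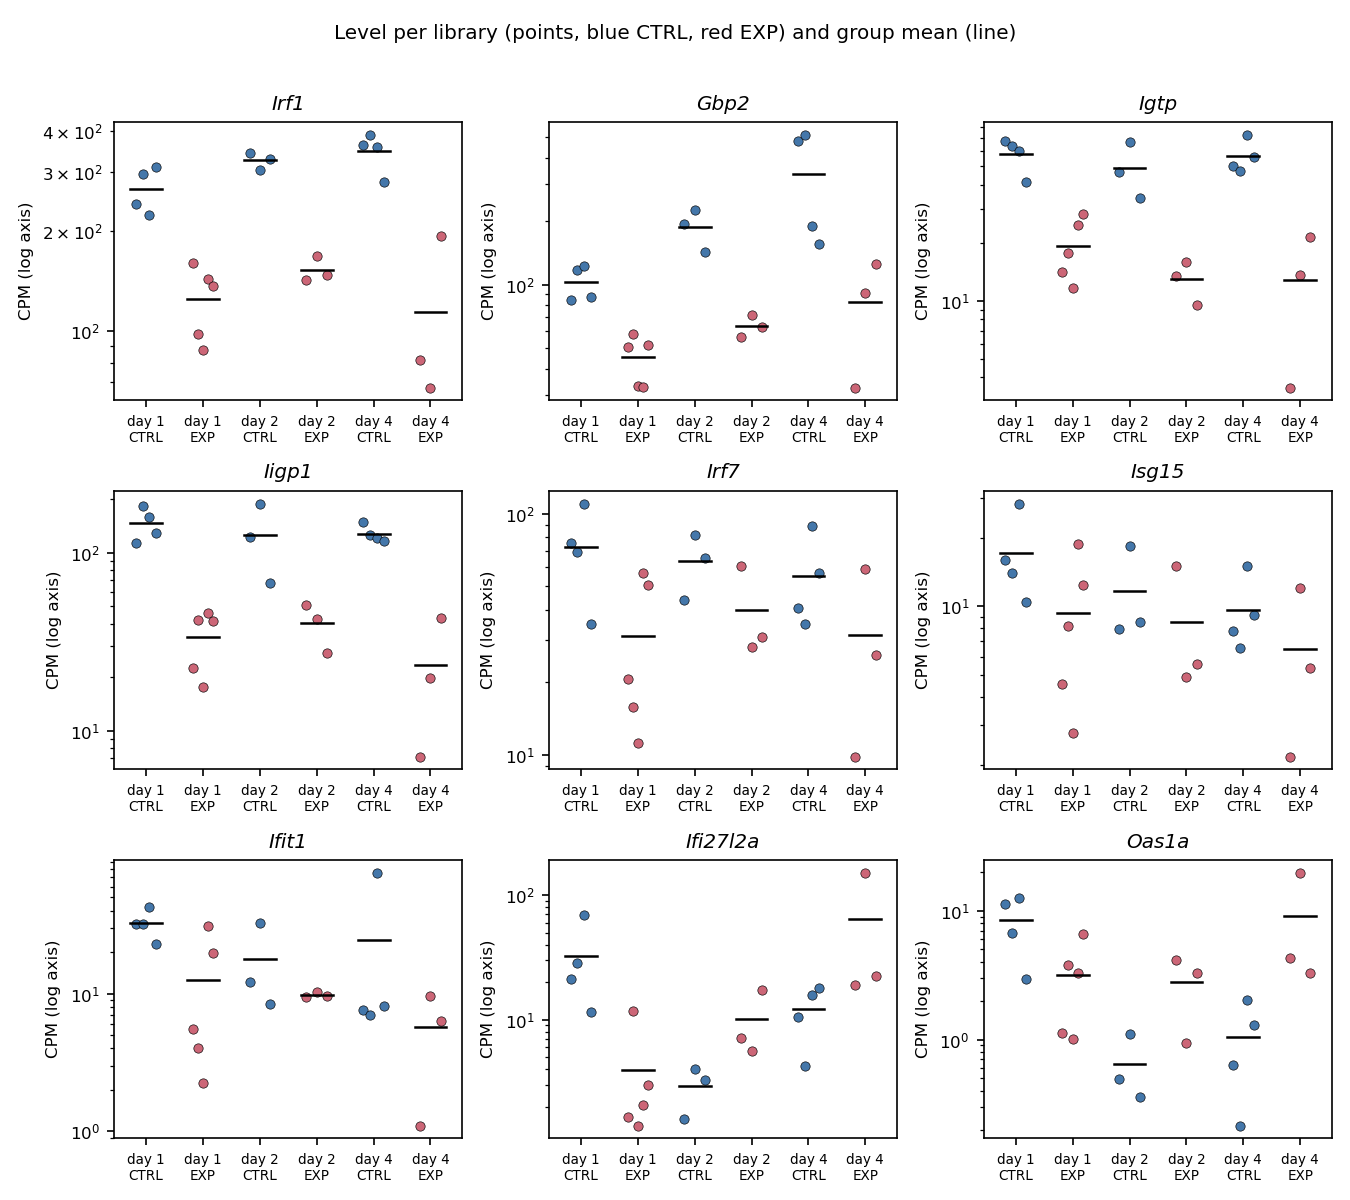
CPM of 9 members in each library (points, log axis; blue CTRL, red EXP) with the group mean (line). For Irf1, Gbp2, Igtp and Iigp1 the EXP points lie below all CTRL points of the same day, for Irf7, Isg15 and Ifit1 the groups overlap, and for Ifi27l2a and Oas1a the EXP points of day 4 lie above the CTRL points.

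Of the 6 sensors of foreign or misplaced RNA and DNA, 2 were called lower on day 1 and 1 on day 4. Zbp1, which binds left-handed nucleic acid and can start cell death, had means of 27.9 CPM (SD 5.55) over the 4 CTRL libraries and 12.3 CPM (SD 4.30) over the 5 EXP libraries on day 1 without overlap and fell by 1.18 on the log2 scale (± 0.33, q 0.00992). Dhx58, which encodes the RNA helicase LGP2, fell by 1.67 on day 1 (± 0.61, q 0.0447), with overlap between the groups. On days 2 and 4, Zbp1 gave -0.35 and 0.18 and Dhx58 gave 0.43 and -0.23, none of which passed. Ifih1, which encodes the double-stranded RNA sensor MDA5, was at log2 fold changes of -1.02, -1.30 and -0.84 on days 1, 2 and 4 with adjusted p-values of 0.0576, 0.0838 and 0.199. Ifi203, of the DNA-binding PYHIN family, fell by 1.34 on day 4 (± 0.43, q 0.0325), from 91.6 CPM (SD 8.16) over the 4 CTRL libraries to 36.2 CPM (SD 18.95) over the 3 EXP libraries, and its relative Ifi204 had differences of -0.20, -0.27 and -0.33 that did not pass. Eif2ak2, which encodes the kinase PKR, was at -0.15, 0.75 and 0.63, none past the threshold. Exons of Ifi203 overlap those of Mndal on the same strand, and PYHIN genes resemble each other.

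Isg15 encodes a ubiquitin-like protein that is coupled to other proteins, Herc6 the ligase that couples it in mice, and Usp18 the protease that removes it and also damps IFNAR signalling. Isg15 was at 16.03, 13.99, 28.3 and 10.5 CPM in CTRL and 4.54, 8.16, 2.76, 18.8 and 12.4 CPM in EXP on day 1 and at 7.97, 18.4 and 8.54 CPM in CTRL and 15.02, 4.88 and 5.54 CPM in EXP on day 2. On day 4, Isg15 had 7.79, 6.56, 15.1 and 9.13 CPM in CTRL and 2.17, 11.98 and 5.36 CPM in EXP. CTRL and EXP overlapped on every day, with EXP replicate 4 of day 1 above 3 of the 4 CTRL libraries. The log2 fold changes of Isg15 were -0.88 (± 0.53, q 0.226), -0.45 (± 0.65, q 0.701) and -0.57 (± 0.62, q 0.537), and none passed.

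Herc6 was at 13.4, 10.7, 17.1 and 5.67 CPM in CTRL and 2.52, 3.55, 2.61, 5.54 and 2.84 CPM in EXP on day 1. For day 2, Herc6 read 5.88, 9.45 and 4.45 CPM in CTRL and 6.77, 4.09 and 4.44 CPM in EXP, and for day 4 10.1, 9.57, 6.33 and 5.37 CPM in CTRL and 2.90, 4.83 and 4.36 CPM in EXP. The groups were apart on days 1 and 4, on day 1 by a narrow gap between CTRL replicate 4 and EXP replicate 4, and overlapped on day 2. Herc6 fell 3.43-fold on day 1, a log2 fold change of -1.78 (± 0.32, q 0.000411). On days 2 and 4 the differences were -0.37 (± 0.39, q 0.587) and -0.96 (± 0.37, q 0.0677) and did not pass. Usp18 fell by 1.83 on day 1 (± 0.55, q 0.0180), from 43.0 CPM (SD 8.38) over the 4 CTRL libraries to 12.03 CPM (SD 11.8) over the 5 EXP libraries with overlap, and its differences of -1.20 on day 2 and -1.34 on day 4 did not pass.

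The IFIT proteins bind viral RNA and block its translation. Ifit1 was at 31.9, 32.3, 42.9 and 23.1 CPM in CTRL and 5.56, 4.04, 2.25, 31.1 and 19.7 CPM in EXP on day 1. On day 2, Ifit1 was at 12.2, 32.8 and 8.36 CPM in CTRL and 9.44, 10.3 and 9.56 CPM in EXP, and on day 4 at 7.59, 6.99, 75.7 and 8.18 CPM in CTRL and 1.10, 9.62 and 6.36 CPM in EXP. On day 1 EXP replicates 1 to 3 were far below CTRL and replicates 4 and 5 close to it. On day 4 a single library, CTRL replicate 3, stood far above the rest. Log2 fold changes of Ifit1 were -1.37 (± 0.78, q 0.201), -0.86 (± 0.97, q 0.609) and -2.12 (± 0.96, q 0.119), and the last came to -0.42 without CTRL replicate 3 of day 4.

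Ifit3 followed the same libraries. It was at 22.5, 15, 26.8 and 13.1 CPM in CTRL and 1.68, 0.646, 1.23, 17.2 and 6.86 CPM in EXP on day 1, and at 4.93, 10.9 and 5.53 CPM in CTRL and 10.3, 3.78 and 3.53 CPM in EXP on day 2. The day 4 libraries held 2.03, 3.13, 15.8 and 4.07 CPM of Ifit3 in CTRL and 0.912, 5.62 and 2.04 CPM in EXP. EXP replicate 4 of day 1 lay among the CTRL values, and CTRL replicate 3 of day 4 was again the highest of its group. The differences were -1.80 (± 0.78, q 0.0908), -0.27 (± 0.95, q 0.887) and -1.14 (± 0.93, q 0.395), none of which passed, and that of day 4 was -0.12 without CTRL replicate 3. Ifit2 fell by 1.47 (± 0.50, q 0.0326) and Ifit3b by 2.24 (± 0.72, q 0.0240) on day 1, both with overlapping groups, and neither passed on day 2 or 4. Across the family on day 2 and on day 4, 0 of 4 members were called by edgeR or by DESeq2, and the count at an unadjusted p under 0.05 was 0 on day 2 and 1 (Ifit1) on day 4. Ifit3 and Ifit3b are near-identical, so the split of reads between them is uncertain.

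The OAS enzymes make the short adenylate chains that activate RNase L. On day 1 all 4 had lower fitted levels in EXP and on days 2 and 4 all 4 had higher ones, of which Oas1a on day 4 passed. Oas1a was at 11.3, 6.70, 12.6 and 2.95 CPM in CTRL and 1.12, 3.76, 1.02, 3.31 and 6.60 CPM in EXP on day 1 and at 0.498, 1.10 and 0.359 CPM in CTRL and 4.16, 0.944 and 3.30 CPM in EXP on day 2. Its day 4 values were 0.629, 0.215, 2.01 and 1.30 CPM in CTRL and 4.32, 19.7 and 3.29 CPM in EXP. The groups overlapped on days 1 and 2, and on day 4 all EXP libraries lay above CTRL, with EXP replicate 2 far above the other two. Oas1a gave -1.41 (± 0.66, q 0.115) on day 1, 2.11 (± 0.90, q 0.127) on day 2 and 3.12 (± 0.79, q 0.0100) on day 4. Without EXP replicate 2 of day 4 the value was 1.84 with an adjusted p of 0.123 (edgeR), which did not pass. Oas2 and Oas3 were low, at no more than 9.69 and 4.37 CPM and at 0 in some libraries, and Oasl2 lay between 3.49 and 49.4 CPM. Their largest differences were -2.06 and 2.01 for Oas2, -2.80 and 2.40 for Oas3 and -0.94 and 0.50 for Oasl2, none past the threshold.

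Parp9 and Dtx3l encode a pair of proteins that act together as an enzyme modifying histones and viral proteins, and Parp14 is a related ADP-ribosyltransferase. Dtx3l fell by 1.5 on day 1 (± 0.37, q 0.00484), from 23.2 CPM (SD 6.12) over the 4 CTRL libraries to 8.16 CPM (SD 4.49) over the 5 EXP libraries without overlap, and its differences of -0.96 and -1.01 on days 2 and 4 did not pass. Parp9 gave -0.75, -0.83 and -0.52 and Parp14 gave -0.61, -0.83 and -1.12 on days 1, 2 and 4, and 0 of these 6 values passed. Parp9 and Dtx3l have exons that overlap on opposite strands, and whether the counting used the strand is not given in the sources used here.

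Among the other effectors, 9 of 11 were called lower on day 1. Bst2 encodes tetherin, which holds budding viruses at the cell surface. Bst2 was at 58.9, 47.6, 81.6 and 39.2 CPM in CTRL and 10.03, 28.4, 11.6, 22.6 and 32.8 CPM in EXP on day 1 and at 14.04, 26.6 and 20.2 CPM in CTRL and 28.6, 13.6 and 18.8 CPM in EXP on day 2. The day 4 values of Bst2 were 12.5, 13.4, 16.2 and 21.2 CPM in CTRL and 11.4, 31.01 and 11.1 CPM in EXP. CTRL lay above EXP without overlap on day 1 and the groups overlapped on days 2 and 4, when the CTRL values were lower too. The differences were -1.43 (± 0.37, q 0.00627), 0.00422 (± 0.45, q 0.999) and 0.17 (± 0.42, q 0.805).

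Samhd1, which hydrolyses the nucleotides needed for DNA synthesis, was at 94.7, 81.7, 70.1 and 38.4 CPM in CTRL and 35.3, 55.1, 42.2, 52.1 and 44.4 CPM in EXP on day 1. A day later it read 69.2, 74.2 and 80.8 CPM in CTRL and 30.1, 43.5 and 42.5 CPM in EXP, and on day 4 100.5, 84.5, 73.4 and 91.1 CPM in CTRL and 45.8, 86.6 and 63.5 CPM in EXP. The groups were apart on day 2 and overlapped on days 1 and 4, where CTRL replicate 4 was low on day 1 and EXP replicate 2 high on day 4. Samhd1 fell by 0.64 on day 1 (± 0.22, q 0.0316) and 0.95 on day 2 (± 0.27, q 0.0216), and its difference on day 4 was -0.42 (± 0.25, q 0.232).

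Ifi27l2a, a small hydrophobic protein of mitochondria and the nuclear envelope, changed direction between days. Its CPM on day 1 were 21.1, 28.5, 68.7 and 11.5 in CTRL and 1.68, 11.7, 1.42, 2.07 and 3.03 in EXP, overlapping because EXP replicate 2 stood apart from the other EXP libraries. On day 2 they were 1.59, 4.02 and 3.28 in CTRL and 7.10, 5.67 and 17.5 in EXP, and on day 4 10.4, 4.29, 15.9 and 18.1 in CTRL and 19.1, 151 and 22.3 in EXP. EXP lay above CTRL without overlap on days 2 and 4, by little on day 4 apart from EXP replicate 2. The log2 fold changes were -3.04 (± 0.74, q 0.00480), 1.76 (± 0.91, q 0.217) and 2.39 (± 0.81, q 0.0400), so that a fall on day 1 and a rise on day 4 passed. Without EXP replicate 2 of day 4 the difference was 0.74 with an adjusted p of 0.568 (edgeR), and it was called in 2 of the 7 fits that left out a library of that day.

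Lgals3bp, which encodes a secreted galectin-binding glycoprotein, was at 272, 181, 368 and 137 CPM in CTRL and 112, 114, 82.9, 124 and 169 CPM in EXP on day 1. On day 2, Lgals3bp was at 66.2, 86.3 and 139 CPM in CTRL and 199, 119 and 168 CPM in EXP, and on day 4 at 75.6, 58.3, 191 and 154 CPM in CTRL and 180.1, 364 and 137 CPM in EXP. The groups overlapped on each day, with CTRL mostly higher on day 1 and EXP mostly higher afterwards. The difference of day 1 passed at -0.99 (± 0.36, q 0.0470), and those of days 2 and 4 did not, at 0.74 (± 0.45, q 0.298) and 0.92 (± 0.41, q 0.113).

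The remaining effectors were called on day 1 or not at all. Cmpk2, a mitochondrial nucleotide kinase, fell by 1.88 (± 0.57, q 0.0175), and Rtp4, an interferon-induced chaperone of receptors, by 1.82 (± 0.56, q 0.0209), both without overlap on day 1. Ifi35 fell by 1.04 (± 0.26, q 0.00532) without overlap. Trim30a fell by 1.23 (± 0.41, q 0.0293) and the apoptosis factor Xaf1 by 1.02 (± 0.36, q 0.0377), with overlap. Rsad2, which encodes the antiviral enzyme viperin, was at 14.99 CPM (SD 4.92) over the 4 CTRL libraries and 6.02 CPM (SD 7.11) over the 5 EXP libraries on day 1, where the difference of -1.31 did not pass (adjusted p 0.331). Ifi44 stayed at or under 1.93 CPM in every library and was called on no day.

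Whether the EXP effect on a member depended on the day was tested directly. In the joint test over the 3 days, 3 of 41 members passed, against 8.82% of all tested genes. They were Ifi27l2a (adjusted p 0.00753), Oas1a (0.0175) and Lgals3bp (0.0452), and Bst2 did not pass at 0.102. From day 1 to day 2 the EXP effect on Ifi27l2a rose by 4.80 on the log2 scale (± 1.19, q 0.0352), the only member called of 41 (2.97% of all genes, 2.48% in that direction and 0.484% in the other). Between day 1 and day 4 the effect rose by 5.43 for Ifi27l2a (± 1.10, q 0.00468), 4.53 for Oas1a (± 1.03, q 0.00859) and 1.91 for Lgals3bp (± 0.55, q 0.0277), 3 members against 13.3% of all genes (8.16% in that direction and 5.18% in the other). Between days 2 and 4, 0 members and 0% of all genes were called by edgeR, 0 members at an unadjusted p under 0.05 and 0 by DESeq2 (0.199% of all genes). For the 5 members lower on all 3 days no difference of effect between days passed. Libraries of one day may also have been prepared together, and the labels say nothing of it.

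In CTRL alone, 0 members changed over the 3 days by the joint edgeR test (0.291% of all genes), with 8 at an unadjusted p under 0.05 and 4 called by DESeq2 (2.99% of all genes). Bst2 and Oas1a came nearest, with adjusted p-values of 0.0539 and 0.0520. In CTRL, mean Bst2 was 56.8, 20.3 and 15.8 CPM and mean Oas1a 8.39, 0.651 and 1.04 CPM on days 1, 2 and 4. In EXP alone, 1 member passed (14.3% of all genes), which was Ifi27l2a (adjusted p 0.00425), with means of 3.98, 10.1 and 64.1 CPM.

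The mean log2 CPM over the tested members sums up each library. In CTRL of day 1 it was 4.93, 4.80, 5.26 and 4.09, and in EXP of day 1 it was 2.78, 2.92, 2.14, 4.13 and 3.91. For day 2 it was 3.72, 4.47 and 3.67 in CTRL and 4.04, 3.27 and 3.54 in EXP, and for day 4 it was 3.69, 3.60, 4.60 and 3.92 in CTRL and 2.50, 4.15 and 3.57 in EXP. CTRL replicates 1 to 3 of day 1 were the highest of all libraries, and CTRL replicate 4 of day 1 was level with EXP replicates 4 and 5 of that day. On the other days the groups overlapped.

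**Figure D5:**
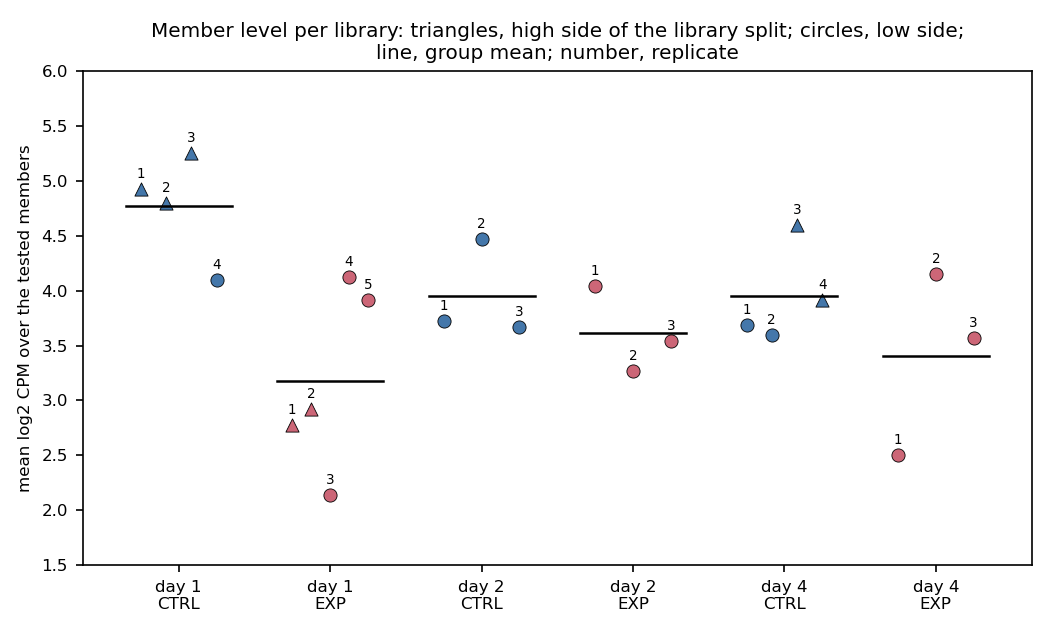
Mean log2 CPM of the tested members in each library (vertical axis) by group, with the group mean as a line, the replicate number above each point and the side of the library split as the shape (triangles high, circles low). The 3 high-side CTRL libraries of day 1 lie at 4.80 to 5.26 and the 2 high-side EXP libraries at 2.78 and 2.92, while the low-side libraries of day 1 lie at 4.09 in CTRL and 2.14 to 4.13 in EXP.

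The EXP effect was then taken within each side of the library split, and the difference between the sides was not tested. Within the high side (3 CTRL, 2 EXP), 34 of 42 tested members were called lower and 0 higher, with a median of -2.09, where 13.7% of all genes were called. Within the low side (1 CTRL, 3 EXP), 0 members were called (3.58% of all genes), with a median of -0.35 and with 30 members below and 11 above 0. The single CTRL library there is assumed to vary like the other groups. Low-side values kept the sign of the fall for Irf1 at -1.35, Gbp2 at -1.15, Gbp7 at -1.07, Igtp at -0.96, Irgm1 at -1.92 and Iigp1 at -1.87, and turned to 0.17 for Irf7, 0.11 for Isg15, 0.30 for Oas1a and 0.27 for Stat2 and Samhd1. With the side as a covariate, 17 members were called lower on day 1 (27.8% of all genes). On day 4, the low side alone (2 CTRL, 3 EXP) left 4 lower, Irf1, Gbp2, Gbp7 and Iigp1, and 2 higher, Oas1a and Lgals3bp (5.57% of all genes). All libraries of day 2 were on the low side.

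Leaving out 1 library at a time moved these counts and those of all genes. All genes called ran from 4024 (without CTRL replicate 3) to 4830 (without EXP replicate 2) on day 1, against 5017 with all libraries. On day 2 they ran from 891 (without EXP replicate 1) to 2177 (without EXP replicate 2), against 2359. For day 4 they ran from 1633 (without EXP replicate 1) to 5011 (without EXP replicate 3), against 3943. Members are counted in what follows. On day 1 between 13 members (without CTRL replicate 3) and 28 (without EXP replicate 4) were called lower, with 15 without EXP replicate 3 and 16 without EXP replicate 1. Those lower in each of the 9 fits were Irf1, Zbp1, Usp18, Herc6, all GTPases but Gbp3, Dtx3l, Bst2, Ifi35 and Ifi27l2a. On day 2 the count was 2 without CTRL replicate 2, EXP replicate 1 or EXP replicate 3, and at most 5 in the other fits, against 6 with all libraries. On day 4 it ran from 5 (without EXP replicate 1) to 10 (without EXP replicate 3), with 6 without CTRL replicate 3, and Irf1, Gbp2, Gbp7, Igtp and Iigp1 were lower in each of the 7 fits. Lower calls that held in fewer fits on day 1 were those of Irf9 (5 of 9), Samhd1 (3 of 9) and Lgals3bp (3 of 9). The day 1 calls of Dhx58, Gbp3, Ifit2, Ifit3b, Cmpk2, Rtp4, Trim30a and Xaf1 were also lost in at least 1 of the 9 fits. For day 2 they were Irf1 (4 of 6), Irgm1 (3 of 6), Samhd1 (3 of 6), Gbp2 (2 of 6) and Iigp1 (1 of 6). For day 4 they were Stat2 (5 of 7), Irf9 (4 of 7) and Irgm1 (4 of 7). The day 4 call of Ifi203 was also lost in at least 1 of the 7 fits. Without EXP replicate 4 of day 1, Irf7 passed at -1.56 (q 0.0367), Ifit3 at -2.88 (q 0.00973) and Stat2 at -0.84 (q 0.0321). Stat2 also passed without CTRL replicate 4 of day 1, at -0.88 (q 0.0234), and Gbp7 passed on day 2 without EXP replicate 1, at -1.23 (q 0.0494).

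Markers of other cell types were read beside these results, as sums of CPM over lists of markers. The 12 immune markers summed to 62.9 to 111 CPM in CTRL and 64.1 to 90.7 in EXP on day 1, 139 to 182 and 100.02 to 176 on day 2, and 123 to 158 and 78.0 to 181 on day 4. Most of that was Csf1r, Cd14 and Cd68, whose mean differences had different signs on day 1, with Csf1r at 57.2 CPM in CTRL and 26.3 in EXP, Cd14 at 21.1 and 38.1 and Cd68 at 5.22 and 13.4. On day 2 the neutrophil gene S100a8 had means of 0.0174 CPM in CTRL and 1.88 in EXP. On day 4, where Oas1a and Ifi27l2a rose, the 6 endothelial markers summed to 25.8, 55.6 and 23.7 CPM in EXP against 4.16 to 9.96 in CTRL, with EXP replicate 2 the highest, and most of it was Tek. The other 5 also had higher means in EXP than in CTRL on that day, at 0.405 against 0.0806 CPM for Cdh5, 2.70 against 0.912 for Pecam1, 1.19 against 0.271 for Vwf, 1.78 against 0.204 for Kdr and 0.536 against 0.0107 for Emcn. The 4 adipocyte markers summed to 1.77, 113 and 338 CPM there against at most 1.11 in CTRL. The 5 T and NK cell markers summed to 13.1 to 29.0 CPM in EXP of day 4 and 0.293 to 6.93 in CTRL, nearly all of it Cd3e, with Cd8a at 0. On day 1 the keratinocyte markers had median sums of 20.99 CPM in CTRL and 3.70 in EXP, and the endothelial markers 7.05 and 1.15. Both overlapped, with keratinocyte sums of 7.29 to 41.3 CPM in CTRL and 2.17 to 14.2 in EXP. The endothelial sums were 5.76 to 9.23 and 0.912 to 8.48. The pericyte markers had median sums of 41.9 and 16.7 CPM in CTRL and EXP on day 1 and 52.3 and 21.1 on day 2. The ranges were apart on both of these days. On day 4 the pericyte medians were 42.3 and 27.6, with overlap. The summed fibroblast markers, mostly collagen transcripts, were lower in EXP, with medians of 261132 and 114337 CPM on day 1, 372457 and 133517 on day 2 and 350577 and 162845 on day 4 in CTRL and EXP. Of the genes on which the cells were sorted, Pdgfra went the other way, with means of 356 and 639 CPM in CTRL and EXP on day 1. Its means were 239 and 780 on day 2 and 296 and 513 on day 4. Cd34, also used for sorting, had lower means in EXP, at 1409 and 421 CPM on day 1. They were 1848 and 441 on day 2 and 1971 and 1037 on day 4. Dcn and Lum also had lower means in EXP on each day. The part of these cells and of the lower collagen share in the member results was not tested.

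Members varied together among replicates. After group means were removed, the correlation of a member with the mean of the other members over the 22 libraries had a median of 0.77, and it was above 0.5 for 36 of 41. The highest were Irf7 (0.951), Isg15 (0.950) and Rtp4 (0.942), and the lowest Irf1 (0.0915), Gbp2 (0.201) and Ifi204 (0.247). These are descriptions over libraries that share groups, depth and scaling. Of the 5 members called lower on all 3 days, Irf1 and Gbp2 were the lowest by this measure, and Igtp (0.790), Irgm1 (0.737) and Iigp1 (0.666) lay near or somewhat below the median. Of the 3 highest, Irf7 and Isg15 were called on no day and Rtp4 was called lower on day 1. The libraries highest in the shared component within their group were EXP replicate 4 of day 1 (1.29 on the scale of standardised residuals), EXP replicate 2 of day 4 (0.945) and EXP replicate 5 of day 1 (0.927), and the lowest were EXP replicate 3 of day 1 (-1.43) and EXP replicate 1 of day 4 (-1.32).

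Levels of different members were compared only per kilobase of exon. As the mean of the 6 group means, Lgals3bp stood highest at 56.5 CPM per kb, followed by Irf1 at 55.9, Gbp2 at 54.1, Ifi204 at 46.8 and Ifi27l2a at 45.3. These 5 overlap widely when their range over libraries is taken, for example 17.0 to 98.0 for Irf1 and 12.9 to 204 for Gbp2, so their order is not resolved. Bst2 followed at 28.1 and Igtp at 17.2. The lowest were Ifi44 at 0.0585, Epsti1 at 0.0604 and Oas3 at 0.109. Set beside the promoters, the median log2 fold change on day 1 was -1.42 for the 16 members with an ISRE core and -1.04 for the 15 tested without. On day 2 the medians were -0.41 and -0.62, and on day 4 -1.18 and -0.58. Called lower were 8 of 16 with the core and 10 of 15 without on day 1, 3 and 2 on day 2, and 6 and 2 on day 4. Beside these, 14.7%, 5.71% and 9.66% of all tested genes were called lower. On day 4, 1 member with the core and 0 without were called higher, as were 12.8% of all tested genes.

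The interferon genes themselves were at the edge of detection. Of 21 listed ligands, 13 had 0 counts in all 22 libraries, and the highest count in any library was 10, for Ifnab. Ifnb1 reached at most 6 counts and 0 of the 21 had enough counts to test. Counts of 0 here limit the RNA in the sorted cells only, to about 0.0805 to 0.157 CPM depending on the library, and say nothing of interferon made by other cells of the skin.

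Receptors and kinases of the pathway were present. Ifnar1 was at 56.0 to 96.0 CPM, Ifnar2 at 59.0 to 94.4, Ifngr1 at 91.6 to 433 and Jak1 at 443 to 851 over all libraries. Of 10 tested, 3 were called lower and 3 higher on day 1, 1 lower on day 2 and 2 lower on day 4, beside 28.6%, 13.4% and 22.5% of all tested genes called. Ifngr1, the ligand-binding chain of the interferon-γ receptor, fell on each day, by 0.98 (± 0.17, q 0.000228), 0.63 (± 0.20, q 0.0438) and 0.86 (± 0.19, q 0.00468), from means of 368, 204 and 228 CPM in CTRL to 187, 132 and 126 in EXP. Jak2, a kinase of the interferon-γ receptor, rose by 1.51 on day 1 (± 0.30, q 0.000823), from 14.999 to 42.6 CPM. Of the type I receptor and its kinases, Tyk2 was at -0.98 on day 1 (± 0.22, q 0.00208) and Ifnar2 at 0.41 (± 0.11, q 0.00921). Neither Tyk2 nor Ifnar2 was called on day 2 or 4. Stat3, used mainly by other cytokines, rose by 0.59 on day 1 (± 0.18, q 0.0165) and fell by 0.67 on day 4 (± 0.20, q 0.0240).

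Of 13 tested genes (15 symbols listed) that lead to interferon production, 3 were called higher and 4 lower on day 1, 1 lower on day 2, and 1 higher and 3 lower on day 4, where 28.6%, 13.4% and 22.5% of all tested genes were called. The listed symbols Sting1 and Rigi are other names of Tmem173 and Ddx58, which were tested. Tmem173, which encodes the adaptor STING, rose by 1.06 (± 0.18, q 0.000205) on day 1, while the adaptor gene Mavs fell by 1.02 (± 0.19, q 0.000502) and the RNA receptor gene Tlr3 by 1.18 (± 0.25, q 0.00137). Mavs was the only one called on day 2, at -0.79 (± 0.23, q 0.0286). Ikbke, which encodes the kinase IKKε, fell by 0.77 on day 1 (± 0.24, q 0.0199) and rose by 1.37 on day 4 (± 0.27, q 0.00223). The adaptor gene Traf3 did the reverse, at 0.86 on day 1 (± 0.25, q 0.0122) and -1.09 on day 4 (± 0.28, q 0.0108). Myd88 was at -0.65 on day 4 (± 0.19, q 0.0204). Of 10 brakes on the pathway, 2 were higher and 2 lower on day 1, 1 lower on day 2 and 3 lower on day 4, which set against the same shares of all genes is 4, 1 and 3 of 10. Socs3, an inhibitor of JAK kinases, fell by 1.30 on day 1 (± 0.26, q 0.000943) and 1.00 on day 2 (± 0.32, q 0.0409). Also on day 1, Ptpn1 rose by 0.59 (± 0.13, q 0.00181) and Ptpn2 by 0.39 (± 0.14, q 0.0471). Irf2bp2 fell by 1.02 on day 1 (± 0.27, q 0.00724) and 1.08 on day 4 (± 0.31, q 0.0186). Pias1 fell by 0.91 on day 4 (± 0.19, q 0.00256). Socs1, the main brake on interferon-γ signalling, fell by 3.30 on day 4 (± 0.78, q 0.00726), from 102 CPM (SD 92.6) over the 4 CTRL libraries to 10.3 CPM (SD 3.62) over the 3 EXP libraries.

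A further 52 interferon-stimulated genes outside the set were listed, of which 50 could be tested. On day 1, 17 were lower and 3 higher, on day 2, 9 lower and 3 higher, and on day 4, 12 lower and 5 higher, or 40%, 24% and 34% of those tested, beside 28.6%, 13.4% and 22.5% of all genes. Isg20, an RNA exonuclease, was lower on all 3 days, by 1.44 (± 0.21, q 6.1e-05), 1.195 (± 0.26, q 0.00488) and 1.14 (± 0.25, q 0.00349). Irgm2, of the immunity-related GTPases, fell by 2.31, 2.19 and 2.00 on days 1, 2 and 4, and Parp10 by 1.07, 1.34 and 1.48. Tgtp2, a T-cell-specific GTPase family member that is nearly identical to Tgtp1, fell by 2.93 on day 1 (± 0.54, q 0.000502). In the other direction, Slfn5 of the Schlafen family rose by 2.17 on day 4 (± 0.45, q 0.00305), from a mean of 20.3 to 91.3 CPM.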

How the data were processed

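The deposited table holds raw counts per gene for the 22 libraries. Per the submitters' processing notes, reads were trimmed with Trimmomatic and the build was mm39; the aligner, counter, annotation release and strand setting are not given in the sources used here. Symbols came from GENCODE M21 for 52081 of 55414 identifiers, and 0 columns fell outside the labels. The deposited counts were scaled by TMM and tested in edgeR 4.0.16 (R 4.3.3; robust quasi-likelihood fit, filterByExpr with a minimum count of 10 over the 6 groups, 22 libraries in 1 fit, 16 residual degrees of freedom), with Benjamini-Hochberg adjustment over all 17554 tested genes. Genes were called at an adjusted p under 0.05. CPM are counts scaled to the TMM-corrected library total, and log2 CPM used a prior count of 2. Alternatives used DESeq2 1.42.0 and limma 3.58.1. Library totals were 21461294 to 30210204, so that 3 counts equal 0.0805 to 0.157 CPM. This floor covers counting error only. The Wilson interval of the promoter share treats genes as independent draws, while the members are a chosen list with related genes.

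The members and lists were chosen with earlier results of these data known. Values in every library are given for Stat2, Irf1, Irf7, Irf9, Isg15, Ifit1, Ifit3, Gbp2, Iigp1 and Bst2, for the members with the 4 smallest adjusted p in each direction and day, and for the 4 with the smallest p between days. Genes of other lists are named where called, with the 3 smallest adjusted p of a list and day. One gene of these lists is not reported here.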

Additional observations from a re-analysis of the deposited data

Results flagged for a closer look

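3 values stood apart from the rest of their group by Dixon's criterion at the 95% level, among 60 groups of values tested, where chance alone flags about 1 in 20. Ifi27l2a was at 11.7 CPM in EXP replicate 2 of day 1, and at 1.42 to 3.03 CPM in the other EXP libraries of that day. Ifit1 was at 75.7 CPM in CTRL replicate 3 of day 4, and at 6.99 to 8.18 CPM in the other CTRL libraries. Ifit3 was at 15.8 CPM in the same library, and at 2.03 to 4.07 CPM in the others.

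The EXP effect differed between days for 3 members in edgeR's joint test of the difference, which is 3 of 41 tested, or 7.32%, beside 8.82% of all tested genes. The adjusted p was 0.0175 for Oas1a, 0.00753 for Ifi27l2a and 0.0452 for Lgals3bp.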

How the results depend on the processing

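Among called results for the members with values given in every library, 207 of 258 other settings kept the direction and the call. In 50 only the direction was kept, and 1 reversed. With 1 library left out, 167 of 214 kept both and 47 the direction only. Calls of the other members were not counted here. The cause of each change was not tested unless stated. Library totals without TMM moved the median of all genes to 0.21, 0.49 and 0.36 on days 1, 2 and 4 and that of the members to -1.13, 0.0383 and -0.40. The share of called genes that were higher went from 48.7%, 57.5% and 57.0% to 66.2%, 90.5% and 80.8%. There, 3 members were lower and 2 higher on day 2, 4 were higher on day 4 and 2 changed within CTRL, and on day 2 Isg15 turned to 0.0383, Ifit3 to 0.22 and Herc6 to 0.11. In that setting 26.4% and 30.1% of all genes were called on days 2 and 4, and 0.929% changed within CTRL. Bst2 on day 2 turned to -0.0125 with DESeq2 size factors and to -0.013 with DESeq2. Without the filter on low counts, which raises the genes adjusted over to 33490, 13 were lower on day 1, 1 higher on day 4, 1 differed between days jointly and 0 between days 1 and 2. Of all genes in that fit, 12.1% were called on day 1, 8.74% on day 4, 3.31% jointly and 1.08% between days 1 and 2. DESeq2 gave 3 differences between days 1 and 2, 5 between days 1 and 4 and 4 within CTRL, beside 6.14%, 18.6% and 2.99% of all genes. Voom with quality weights gave 12 lower on day 2, where it called 26.0% of all genes, against 13.4% in the reported fit. Fits to 1 day's libraries gave 14 lower and 2 higher on day 2 and 5 lower and 0 higher on day 4. They called 22.9% and 7.12% of all genes on these days, against 13.4% and 22.5% in the reported fit.

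With the low side of the library split only, an alternative added after seeing the data, 0 members were lower on day 1 and 4 on day 4. On day 1 Stat2 turned to 0.27, Irf7 to 0.17, Isg15 to 0.11, Samhd1 to 0.27 and Oas1a to 0.30, and on day 4 Ifit3 turned to 0.13.

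The correlations of same-numbered libraries were -0.07 to 0.16 over the 3 days. Whether the replicate numbers pair the samples cannot be decided from these, as differently numbered libraries are not set beside them. With the replicate block, 22, 4 and 8 members were lower on days 1, 2 and 4, 0 higher on day 4, 0 differed between days jointly, between days 1 and 2 or between days 1 and 4, and Bst2 on day 2 was at -0.018. Of all genes, 24.7%, 12.6% and 15.4% were called on days 1, 2 and 4. Jointly it was 2.28%, between days 1 and 2 1.52% and between days 1 and 4 4.46%.

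With 1 library left out, members lower ran from 13 to 28 on day 1, 2 to 5 on day 2 and 5 to 10 on day 4, and members higher from 0 to 2 on day 4. All genes called ran from 4024 to 4830, 891 to 2177 and 1633 to 5011 on these days. Members differing between days ran from 2 to 4 jointly, 0 to 3 between days 1 and 2 and 2 to 6 between days 1 and 4, with 0 to 1 changing within CTRL and 0 to 2 within EXP. The same counts over all genes were 898 to 2572, 155 to 622, 1276 to 3503, 5 to 92 and 1367 to 3415. Bst2 ran from -0.32 to 0.25 on day 2 and -0.51 to 0.44 on day 4, Ifit3 from -0.95 to 0.16 and Isg15 from -1.15 to 0.0366 on day 2. Groups of 3 to 5 libraries and low counts of Oas2, Oas3 and Ifi44 limit what could be called.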
